A study of Mus musculus with 9 samples.

Results

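Pglyrp2, Il2rg and Zbtb7c are 3 genes chosen by their measured response in the libraries described here: each was over 3-fold higher in cultured mouse kidney cells given tumour necrosis factor and lower again when ACHP was added with it. They are 3 of 57010 genes in the count table and 3 of the 14747 genes with enough counts to be tested. Because these values chose them, their own responses are given as a description with no test, and tests are confined to related and neighbouring genes. The cells were primary cultured renal cells from kidneys of wild-type mice, enzymatically digested, strained and grown in serum, so each library is a mixture of cell types. Cultures received PBS, 20 ng/mL TNFα (TNF), or 20 ng/mL TNFα plus ACHP at 1 µM, and were lysed after 6 h. ACHP blocks IKK-beta, a kinase that activates NF-kB. Each group held 3 RNA-seq libraries, all 9 of them from wild-type cells, and no group received ACHP alone. The labels give no age for the mice and do not say whether libraries came from separate animals, so p-values measure only the spread between these libraries, which may be technical.

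The genes belong to different systems. Pglyrp2 encodes a peptidoglycan recognition protein that is also an amidase: it cuts the peptide stem from the sugar chain of bacterial cell wall, which removes its power to stimulate, and it is best known as a protein that the liver secretes into blood. Il2rg encodes the common gamma chain, the receptor subunit shared by the cytokines IL2, IL4, IL7, IL9, IL15 and IL21, which signals through the kinase JAK3 and is best known in lymphocytes. Zbtb7c encodes a transcription factor with a BTB (POZ) domain and zinc fingers, also called Kr-pok, studied mostly for its control of cell cycle and metabolic genes. TNF acts on many cells through NF-kB, the transcription factor whose activation ACHP blocks.

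Promoter sequence shows the region from which a transcriptional response could start, and is given for the 2 members with a RefSeq entry. Each run is the 250 bases before the gene's RefSeq start, 5′ to 3′ on the gene's own strand, in GRCm38.p6 coordinates. That start was not compared with the one in the annotation used for counting. The Pglyrp2 window lies at chr17:32420976-32421225 on the minus strand and the Il2rg window at chrX:101268256-101268505, also on the minus strand. Capitals mark a match to CCGGAAG, a letter pattern of ETS factors.

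Pglyrp2: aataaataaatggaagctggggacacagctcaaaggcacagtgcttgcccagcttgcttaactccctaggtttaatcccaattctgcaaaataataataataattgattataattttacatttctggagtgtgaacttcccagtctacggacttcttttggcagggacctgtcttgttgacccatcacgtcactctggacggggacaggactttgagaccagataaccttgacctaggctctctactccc

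Il2rg: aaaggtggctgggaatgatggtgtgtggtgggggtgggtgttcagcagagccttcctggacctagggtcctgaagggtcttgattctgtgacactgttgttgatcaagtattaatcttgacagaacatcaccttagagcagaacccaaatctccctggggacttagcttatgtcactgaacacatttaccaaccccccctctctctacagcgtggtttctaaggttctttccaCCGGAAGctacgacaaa

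The windows were searched on both strands for the 10-letter NF-kB consensus, for the AP-1 pattern TGANTCA, for the STAT pattern TTCNNNGAA and for CCGGAAG. The Il2rg window held CCGGAAG from 17 to 11 bases before the start on the gene's strand. That pattern was added to the search after this sequence had been seen, and 6.91% of 32851 promoter windows of the same length held it. Neither window held the NF-kB, AP-1 or STAT letters, which occurred in 3.90%, 6.75% and 7.02% of all windows. A missing match says only that these letters are not in these 250 bases. GC content was 44.0% in the Pglyrp2 window and 49.2% in the Il2rg window.

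In the authors' annotation on GRCm39, Pglyrp2 (ENSMUSG00000079563) occupies bases 32631433 to 32643141 of chromosome 17, minus strand, with 3239 exonic bases. Of these, 14.4% overlap exons of CT485616.1 on the opposite strand, and reads there are assigned to neither gene by a counter that does not use strand. CT485616.1 had 18 reads over the 9 libraries, against 367 for Pglyrp2. Il2rg (ENSMUSG00000031304) occupies bases 100307984 to 100311861 of chromosome X, minus strand, with 2387 exonic bases and no overlapping gene. Zbtb7c (ENSMUSG00000044646) is far longer, from base 75953249 to 76281635 of chromosome 18 on the plus strand, with 4732 exonic bases that no other gene shares.

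Totals ran from 14194295 to 20892176 assigned reads per library, and no member had over 125 of them in any library. Levels are given as CPM, a gene's share of its library's assigned reads scaled to a common total with edgeR's TMM factors. With TNF, 917 genes were called either way (6.22% of 14747 tested, edgeR quasi-likelihood test, adjusted p under 0.05), 488 of them higher (3.31%) and 429 lower (2.91%). With ACHP added, 1058 genes were called against TNF alone (7.17%), 400 higher (2.71%) and 658 lower (4.46%), and 891 against PBS (6.04%), 321 higher (2.18%) and 570 lower (3.87%). In the same order, 2763, 3013 and 2773 of the 14747 genes had an unadjusted p under 0.05 in edgeR. Unadjusted counts below stand against that high background. DESeq2 called 394 higher and 322 lower with TNF, among 12746 genes with an adjusted p. Among 18060 such genes it called 247 and 490 for ACHP against TNF, and 209 and 454 against PBS. Epithelial markers (Epcam, Cdh1, Krt8, Krt18, Krt19) summed to between 4110 and 4630 CPM in every library. Proximal tubule markers summed to at most 20.7 CPM. Over the 9 libraries Lrp2 had 1110 reads, Cubn 1105 and Aqp1 282, while Slc5a2 had 2, Slc34a1 1 and Slc22a6 0. Collecting duct markers summed to 41.8 to 52.3 CPM. Among them Gata3 had 4746 reads, Hsd11b2 1345, Scnn1g 587 and Elf5 547, while Aqp3 had 27 and the water channel Aqp2 0. Neuronal markers, foreign to a kidney culture, summed to 2.12 CPM in PBS replicate 1 but to 68.3 and 52.2 in the other PBS libraries, to 24.8 to 45.9 with TNF and to 1.91 to 2.82 with ACHP. Hepatocyte markers summed to 6.53 CPM in TNF with ACHP replicate 2 and to at most 0.64 elsewhere.

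The read counts of Pglyrp2 were 11, 14 and 20 in PBS, 88, 80 and 87 after TNF, and 23, 28 and 16 when ACHP was present too. Scaled for depth, these were 0.776, 0.780 and 1.08 CPM in PBS, 4.83, 5.33 and 5.57 CPM with TNF, and 1.41, 1.34 and 1.02 CPM with both agents. All 3 TNF libraries stood above every other library, while PBS and TNF with ACHP overlapped. The group means were 0.880 ± 0.176, 5.24 ± 0.378 and 1.26 ± 0.207 CPM (SD, n = 3). The lowest TNF library was 4.46 times the highest PBS library. By the edgeR fit, the TNF level was 5.87-fold the PBS level (log2 fold change 2.55, SE 0.24), the level with ACHP was 4.13-fold below TNF alone (−2.05, SE 0.22), and it lay 1.42-fold above PBS (0.50, SE 0.28). Of the 3 genes, Pglyrp2 had the largest fold differences in both of the first 2 comparisons.

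Il2rg had 20, 24 and 33 reads in PBS, 116, 74 and 61 with TNF, and 32, 43 and 39 with both agents. In CPM it stood at 1.41, 1.34 and 1.79 in PBS, at 6.37, 4.93 and 3.91 with TNF, and at 1.96, 2.05 and 2.49 with both. No 2 groups overlapped, and all 3 libraries with ACHP stayed above all 3 PBS libraries. The choice of genes favours the TNF separation, and the share of all genes separated in these ways was not counted, so nothing is read from it. The TNF libraries were the most spread of any group: their coefficient of variation was 24.4%, where counting alone would give 10.9%, and the highest was 1.63 times the lowest. Group means were 1.51 ± 0.240, 5.07 ± 1.24 and 2.17 ± 0.280 CPM (SD, n = 3). The fitted level with TNF was 3.34-fold the PBS level (log2 fold change 1.74, SE 0.23), with ACHP 2.35-fold lower than TNF alone (−1.24, SE 0.22) and 1.42-fold above PBS (0.51, SE 0.25). The gap between the lowest TNF library and the highest with ACHP was the narrowest of the 3 genes, a ratio of 1.57.

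Zbtb7c had 23, 40 and 46 reads in PBS, 125, 100 and 120 with TNF, and 44, 63 and 40 with both agents. Its CPM values were 1.62, 2.23 and 2.49 in PBS, 6.86, 6.66 and 7.69 with TNF, and 2.70, 3.01 and 2.55 with both. The groups did not overlap, but the lowest library with ACHP (2.55 CPM) and the highest PBS library (2.49 CPM) nearly met. As for Il2rg, nothing is read from this separation. Means were 2.11 ± 0.445, 7.07 ± 0.542 and 2.75 ± 0.232 CPM (SD, n = 3). The fitted level was 3.29-fold higher with TNF (log2 fold change 1.72, SE 0.18), 2.55-fold lower when ACHP was added to TNF (−1.35, SE 0.17) and 1.29-fold above PBS with both (0.37, SE 0.20). PBS replicate 1, the PBS library nearly without neuronal markers, was the lowest of the 9 for Zbtb7c, and with it as the only PBS library the TNF log2 fold change was 2.12 in place of 1.72. With the neuronal marker level as a covariate, the log2 fold change of Zbtb7c for ACHP added to TNF was −0.95 (SE 0.32). That of Pglyrp2 was −1.78 (SE 0.48) and that of Il2rg −1.29 (SE 0.41), all with larger SEs than without the covariate. The neuronal markers summed to 24.8 to 45.9 CPM with TNF and to 1.91 to 2.82 CPM with ACHP, so this covariate and ACHP can hardly be told apart. The part of these markers in the values was not tested further.

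**Figure D1:**
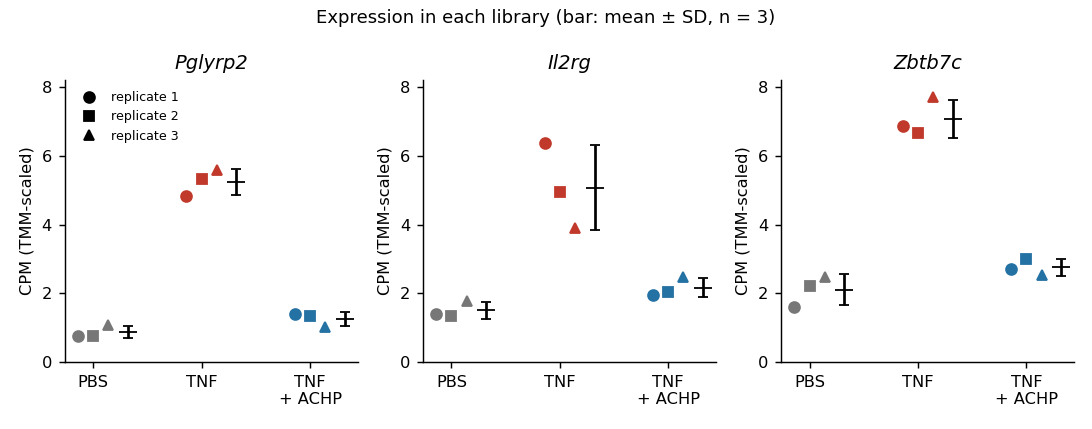
TMM-scaled CPM (linear axis from 0) of Pglyrp2, Il2rg and Zbtb7c in each of the 9 libraries, with marker shape for the replicate number and a bar for the mean ± SD of 3 libraries. Every TNF library lies above every PBS and every TNF with ACHP library for all 3 genes, and the Il2rg TNF libraries spread from 3.91 to 6.37 CPM.

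The share of the TNF rise that was missing with ACHP was computed on mean CPM, as the difference between TNF and TNF with ACHP over the difference between TNF and PBS. It was 91.4% for Pglyrp2 (88.7% to 93.2% on leaving out each library), 81.6% for Il2rg (77.5% to 86.1%) and 87.2% for Zbtb7c (84.0% to 91.7%). The ranges of Pglyrp2 and Il2rg did not overlap, while that of Zbtb7c overlapped both. Such ranges reuse most of the same libraries and are not error intervals, so no difference in share between the genes is read from them. Whether the shares differ was not tested. What remained above PBS was 0.375 CPM for Pglyrp2, 0.655 CPM for Il2rg and 0.637 CPM for Zbtb7c. In bulk libraries such as these, fewer expressing cells and less RNA per cell cannot be told apart.

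Divided by exonic length, so that genes can be compared, the 3 members were low expressed in every group. In RPKM (CPM per kilobase of exon), the PBS means were 0.272 ± 0.0542 for Pglyrp2, 0.447 ± 0.0939 for Zbtb7c and 0.633 ± 0.101 for Il2rg (SD, n = 3). The means of Pglyrp2 and Zbtb7c were separated by their SDs, while those of Zbtb7c and Il2rg were not. With TNF the means were 1.49 ± 0.115 for Zbtb7c, 1.62 ± 0.117 for Pglyrp2 and 2.12 ± 0.518 for Il2rg, and neighbours in that order were within their SDs of each other. With ACHP added they were 0.388 ± 0.0639, 0.581 ± 0.0491 and 0.908 ± 0.117 for Pglyrp2, Zbtb7c and Il2rg, the same order as in PBS, and each step was larger than the SDs. Among tested genes, Pglyrp2 lay at percentile 7.55 in PBS and 29.5 with TNF, Il2rg at 16.3 and 34.1, and Zbtb7c at 12.4 and 28.3, so that even with TNF all 3 stayed below the median tested gene, at 4.67 RPKM.

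The selection can be placed among all genes. With TNF, 16 of the 14747 tested genes were called higher and over 3-fold (0.108%), and all 16 were also called lower with ACHP added, again 0.108% of those tested. Since the rule used these contrasts, nothing is read from that count. By fold change Pglyrp2 was the 7th of the 16, after Mmp3, Hp, Ccl7, Pglyrp3, Acod1 and Ccl2. Il2rg was the 11th and Zbtb7c the 12th, between the adhesion molecule Icam1 (3.98-fold) and the chemokine Ccl20 (3.26-fold). Just inside the 3-fold limit were Mmp9 (3.17-fold) and Neurl3 (3.10-fold), and just outside it were Radil (2.91-fold) and Csf2 (2.90-fold). The missing share of the rise ranged from 62.5% to 109% over the 13 other genes, with a median of 96.2%, above the values of all 3 members. Their highest group means ran from 1.02 to 177 CPM with a median of 5.89, beside 5.07 to 7.07 CPM for the members with TNF.

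**Figure D2:**
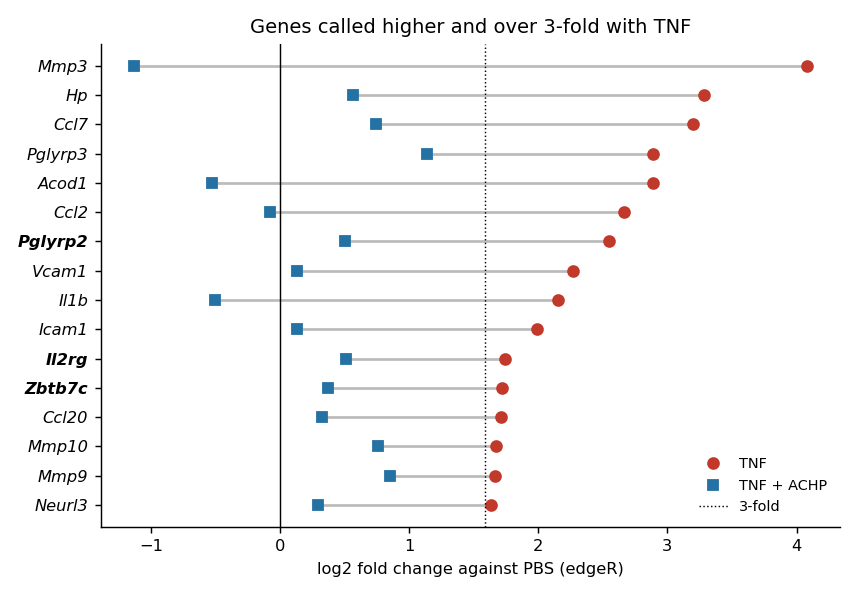
Fitted log2 fold change against PBS of the 16 genes called higher and over 3-fold with TNF, for TNF (circles) and for TNF with ACHP (squares); the dotted line is 3-fold and the 3 members are in bold. Pglyrp2 moves from 2.55 to 0.50, Il2rg from 1.74 to 0.51 and Zbtb7c from 1.72 to 0.37.

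Relatives of Pglyrp2 were read from a list of 20 genes of peptidoglycan sensing and handling, of which 14 were tested. With TNF 3 were called higher and none lower, against 3.31% and 2.91% of all genes, and the median log2 fold change was 0.09 (all genes −0.002). At an unadjusted p under 0.05 the counts were 6 and 0, and DESeq2 called 1 and 0, with no adjusted p for 4 of the 14. The 3 called by edgeR were Pglyrp3, Nod2 and Tlr2. With ACHP added, 4 were called lower than with TNF and none higher, against 4.46% and 2.71% of all genes, with a median of −0.05 (all genes 0.003). They were Pglyrp3, Tlr2, Lyz2 and Slc15a3; unadjusted, 4 were lower and 1 higher, and DESeq2 called 2 lower and 0 higher. Pglyrp3 is itself one of the 16 genes over 3-fold, so its calls are not read as a test. Without it 2 of 13 were called higher with TNF and 3 of 13 lower with ACHP, with medians of 0.07 and −0.05.

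Pglyrp3, a peptidoglycan-binding protein of the same family, had 3, 2 and 2 reads in PBS, 12, 21 and 19 with TNF, and 1, 11 and 5 with both agents. It passed the count filter only through its TNF libraries, so its values are given with no test: a log2 fold change of 2.89 (SE 0.60) with TNF and of −1.75 (SE 0.51) when ACHP was added. Every TNF library had more reads than any other library, by a single read in the closest case. Length-scaled, Pglyrp3 stood at 0.986 RPKM with TNF against 1.62 RPKM for Pglyrp2. The other family members were hardly detected: Pglyrp1 had 28 reads and Pglyrp4 1 read over all 9 libraries, too few for testing.

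Of the intracellular sensors of peptidoglycan fragments, 1 was called. Nod2, which senses muramyl dipeptide, had 9, 11 and 20 reads in PBS, 32, 22 and 31 with TNF, and 20, 24 and 19 with both agents. Its TNF libraries lay above all PBS libraries (log2 fold change 1.14, SE 0.32, edgeR adjusted p = 0.040), and those with ACHP were in between (−0.54 against TNF, SE 0.30, edgeR adjusted p = 0.33). The Nod2 call ended on leaving out PBS replicate 1 or 2, any TNF library, or TNF with ACHP replicate 1 or 3 (edgeR adjusted p from 0.053 to 0.15). Nod1, which senses a different fragment, had a TNF log2 fold change of −0.30 (edgeR adjusted p = 0.66), and Ripk2, the kinase both use, one of 0.11 (edgeR adjusted p = 0.61).

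Tlr2, a surface receptor for bacterial lipoproteins, stood at 25.0, 22.1 and 27.3 CPM in PBS, at 34.4, 31.5 and 32.8 with TNF, and at 20.7, 20.7 and 24.8 with both. The TNF libraries were the highest, by 0.41 in log2 over PBS (SE 0.08, edgeR adjusted p = 0.0036), and the level with ACHP was lower than with TNF alone (−0.58, SE 0.08, edgeR adjusted p = 0.00012). Lyz2, a lysozyme of macrophages that cleaves peptidoglycan, was not called with TNF (0.41, edgeR adjusted p = 0.16) and fell with ACHP by 2.95 in log2 against TNF (edgeR adjusted p = 1.7e-08) and by 2.54 against PBS (edgeR adjusted p = 8.5e-07). Slc15a3, an endosomal transporter of peptides, was lower with ACHP against TNF (−1.26, edgeR adjusted p = 0.030) and against PBS (−1.47, edgeR adjusted p = 0.011). The first of these Slc15a3 calls ended on leaving out any 1 TNF or TNF with ACHP library (edgeR adjusted p from 0.054 to 0.12). These were the only list genes called against PBS, 2 of 14 lower and none higher, against 3.87% and 2.18% of all genes, with a median of −0.01 (all genes 0.005); unadjusted 2 were lower and 2 higher, and DESeq2 called 2 and 0. For Pglyrp2 the log2 fold change of ACHP against PBS was 0.50 (SE 0.28), and the libraries of the 2 groups overlapped. Any link between Pglyrp2 and these list genes was not tested.

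The common gamma chain works only beside a partner chain. The list of 9 receptor genes held 7 partner chains, of which Il4ra and Il15ra were tested, and also Il13ra1 and Crlf2, which pair with Il4ra and Il7r in receptors without the common gamma chain. Il4ra, the IL4 receptor alpha chain, was the only gene of the list called with TNF, 1 of 4 tested against 3.31% of all genes, and was not called by DESeq2. It stood at 36.2, 35.3 and 36.3 CPM in PBS, at 43.5, 39.9 and 42.8 with TNF and at 36.5, 38.5 and 38.6 with both agents. Its TNF libraries were all the highest, by a small step (log2 fold change 0.23, SE 0.06, edgeR adjusted p = 0.015) that did not pass without PBS replicate 2, TNF replicate 1 or TNF replicate 3 (edgeR adjusted p from 0.057 to 0.10). Against TNF alone Il4ra stood at −0.15 with ACHP (edgeR adjusted p = 0.10). In RPKM, Il4ra at 7.01 with TNF was above Il2rg at 2.12.

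Il13ra1 was the 1 gene of the list called lower with ACHP against TNF, against 4.46% of all genes (−0.19, SE 0.05, edgeR adjusted p = 0.015). That call ended without TNF replicate 1, TNF replicate 2 or TNF with ACHP replicate 3 (edgeR adjusted p from 0.055 to 0.098). Il15ra, the IL15-presenting chain, was not called with TNF (0.45, SE 0.31, edgeR adjusted p = 0.48). The lymphocyte chains were near the limit of detection: over all 9 libraries Il2ra had 1 read, Il2rb 9, Il7r 32, Il9r 2 and Il21r 18, against 442 for Il2rg. Il2rb, needed with Il2rg for IL2 and IL15 signalling, averaged 0.00854 RPKM with TNF. None of the 4 tested was called against PBS with ACHP by edgeR or DESeq2, where edgeR called 6.04% of all genes. At an unadjusted p under 0.05, 1 was lower. The medians over the 4 were 0.15, −0.17 and −0.01 for the 3 comparisons in turn, and over Il4ra and Il15ra alone 0.34, −0.21 and 0.13.

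Of the 6 ligands of the common gamma chain receptors 3 were tested, and none was called in any comparison by edgeR or DESeq2. Since edgeR called 6.22%, 7.17% and 6.04% of all genes, nothing is read from 0 of 3. The medians of the ligands were 0.08, −0.14 and −0.14 for TNF against PBS, ACHP against TNF and ACHP against PBS. At an unadjusted p under 0.05 the ligands numbered 0, 0 and 1. Tslp, which was listed with them but signals through Crlf2 and Il7r, was not called with TNF either (0.58, edgeR adjusted p = 0.49). Il15 had a TNF log2 fold change of −0.14 (edgeR adjusted p = 0.80) and Il7 one of 0.16 (edgeR adjusted p = 0.41). Il2 had 15 reads, Il21 3 and Il9 none over all libraries. A count of 0 over the 9 libraries allows a level of up to 0.0197 CPM, for counting error only.

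Downstream of the chain, all 10 genes of the kinase, STAT and feedback list were tested. Jak3, the kinase bound to the common gamma chain, averaged 12.2 CPM in PBS, 12.3 with TNF and 12.1 with both agents (log2 fold change with TNF 0.01, SE 0.11, edgeR adjusted p = 0.98). Jak1, which works with it, averaged 288, 299 and 282 CPM (0.05 with TNF, edgeR adjusted p = 0.57). With TNF 2 genes were called higher, both feedback inhibitors of STAT signalling, and none lower, against 3.31% and 2.91% of all genes, with a median of 0.02 over the list. At an unadjusted p under 0.05 the counts were 3 and 0, and DESeq2 called 1 and 0. Socs2 stood at 41.2, 43.9 and 40.9 CPM in PBS and at 55.5, 58.2 and 56.5 with TNF (0.43, SE 0.06, edgeR adjusted p = 0.00012). With ACHP it stood at 55.2, 46.6 and 52.4 CPM, all above PBS (0.29, SE 0.06, edgeR adjusted p = 0.0064). Cish was higher with TNF by 0.34 (SE 0.09, edgeR adjusted p = 0.023), a call that ended without PBS replicate 1, PBS replicate 3 or any TNF library (edgeR adjusted p from 0.063 to 0.084). No gene of this list was called by edgeR or DESeq2 when ACHP was added to TNF, where edgeR called 7.17% of all genes. There 1 was lower at an unadjusted p under 0.05, and the median was −0.02. Socs2 was the only one called against PBS, where edgeR called 6.04% of all genes and the list median was 0.03.

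Relatives of Zbtb7c were read from a list of 44 ZBTB genes, of which 42 were tested. With TNF 0 were called higher and 1 lower by edgeR, against 3.31% and 2.91% of all genes, with a median of −0.05. Over 42 genes these counts are near the shares of all genes, so nothing is read from them. DESeq2 called none of them, and at an unadjusted p under 0.05 1 was higher and 5 were lower. The closest homologs were far more abundant and were not called. Zbtb7a averaged 109, 110 and 111 CPM in PBS, TNF and both agents (0.01 with TNF, SE 0.06, edgeR adjusted p = 0.94). Zbtb7b, the factor that directs CD4 T cell fate, had a TNF log2 fold change of −0.07 (SE 0.06, edgeR adjusted p = 0.58). In PBS, Zbtb7a at 16.0 RPKM and Zbtb7b at 9.97 RPKM stood against 0.447 RPKM for Zbtb7c. The 1 gene called with TNF was Zbtb37, at 35.7, 33.8 and 35.4 CPM in PBS and 30.9, 27.8 and 30.8 with TNF (−0.23, SE 0.06, edgeR adjusted p = 0.035). That call ended without PBS replicate 1, PBS replicate 3 or any TNF library (edgeR adjusted p from 0.058 to 0.18). With ACHP added to TNF no gene of this list was called by edgeR or DESeq2, where edgeR called 7.17% of all genes. The median was 0.04, with 8 higher and 2 lower at an unadjusted p under 0.05. Against PBS, where edgeR called 6.04% of all genes, only Zbtb18 was called, at a lower level (−0.21, SE 0.05, edgeR adjusted p = 0.018). The Zbtb18 call ended without PBS replicate 2 or 3 or TNF with ACHP replicate 1 or 3 (edgeR adjusted p from 0.055 to 0.098).

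Genes that earlier work tied to Zbtb7c were read in the same way, 5 of 7 being tested. Cdkn1a, the cell cycle inhibitor it represses, had a TNF log2 fold change of −0.02 (edgeR adjusted p = 0.88). Trp53, encoding p53, was called higher with TNF (0.18, SE 0.05, edgeR adjusted p = 0.021), which ended without PBS replicate 3 or any TNF library (edgeR adjusted p from 0.077 to 0.092). Fasn, the fatty acid synthase gene it is reported to activate, stood at 234, 224 and 238 CPM with TNF and at 277, 276 and 261 with ACHP added, all higher (0.23, SE 0.04, edgeR adjusted p = 0.0023). Fasn was also called against PBS (0.18, edgeR adjusted p = 0.014), which ended without PBS replicate 2, TNF with ACHP replicate 1 or TNF with ACHP replicate 2 (edgeR adjusted p from 0.056 to 0.11). With the neuronal marker covariate the first Fasn call ended too (0.14, edgeR adjusted p = 0.34). The gluconeogenic genes Pck1 and G6pc had 4 and 0 reads in all. The medians over the 5 tested genes were −0.02, −0.02 and 0.14. In each comparison edgeR called 1 of the 5 higher and none lower. Of all genes it called 3.31%, 2.71% and 2.18% higher and 2.91%, 4.46% and 3.87% lower.

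**Figure D3:**
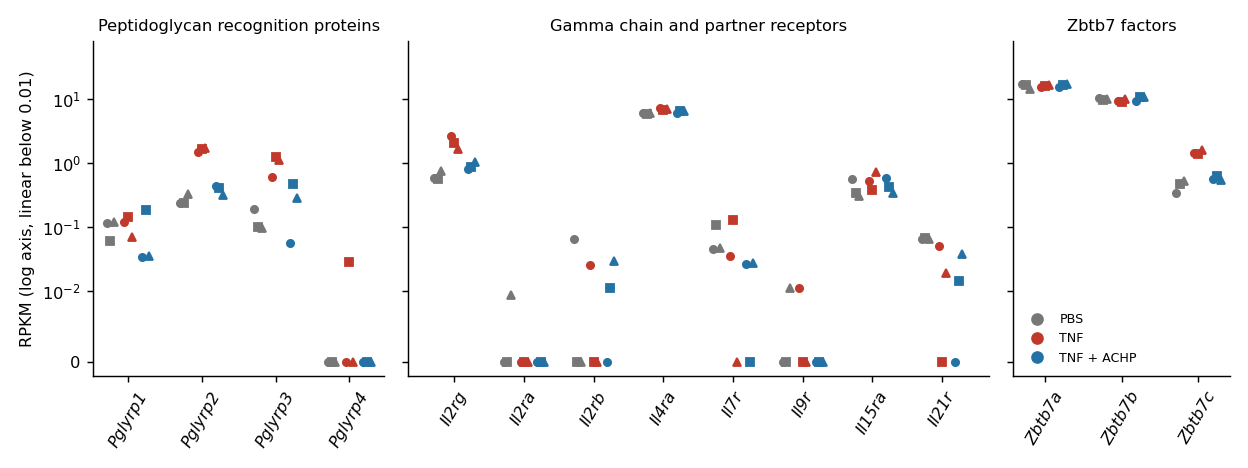
RPKM in each library (log axis, linear below 0.01; PBS grey, TNF red, TNF with ACHP blue; shapes as replicate numbers) of the peptidoglycan recognition proteins, of the common gamma chain with its partner receptors, and of the Zbtb7 factors. Pglyrp2 and Pglyrp3 are highest with TNF, most partner receptors of Il2rg lie below it, and Zbtb7a (16.0 RPKM in PBS) and Zbtb7b (9.97 RPKM) lie well above Zbtb7c.

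Markers of other cell types were set beside the members, since Il2rg and Pglyrp2 are known best from blood cells and liver. Macrophage and dendritic cell markers (14 genes, 10 tested) summed to 33.8 to 36.6 CPM in PBS, 35.1 to 36.2 with TNF and 15.6 to 16.4 with ACHP. Most of the sum with ACHP came from Csf1r (mean 8.26 CPM, 12.1 with TNF) and Cd68 (4.37, 4.90 with TNF). Over the 10 tested markers the median log2 fold change with ACHP was −2.99 against TNF and −2.54 against PBS. None of the 10 was called with TNF by edgeR (2 higher and 1 lower at an unadjusted p under 0.05; DESeq2 called 0 and gave no adjusted p for 7), while 8 were lower with ACHP against TNF and 6 against PBS, where 4.46% and 3.87% of all genes were. Markers of all leukocytes (5 genes, 4 tested) summed to 7.27 to 8.98 CPM, 8.07 to 8.24 CPM and 1.78 to 4.59 CPM, with none called with TNF by edgeR (0 at an unadjusted p under 0.05), and with ACHP 2 were lower against TNF and 3 against PBS. The part of these cells in the members' values was not tested.

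Markers of T and NK cells (12 genes) included 7 with no read in any library: Cd3d, Cd3e, Cd3g, Nkg7, Ncr1, Klrb1c and Prf1. The list summed to 3.52 to 4.51 CPM in PBS, 2.53 to 3.01 with TNF and 3.91 to 4.72 with ACHP, and rested mostly on Lck with 424 reads. The part of T and NK cells in the Il2rg values was not tested. B cell markers summed to at most 0.512 CPM and neutrophil markers to at most 0.897 CPM in any library. The hepatocyte list, Pglyrp2 being a liver gene, was high only in TNF with ACHP replicate 2, with 77 of 80 Alb reads and no Tat read. In that library Pglyrp2 was at 1.34 CPM (28 reads), between the 1.41 and 1.02 CPM of the other libraries of its group. The part of liver cells in the Pglyrp2 values was not tested.

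**Figure D4:**
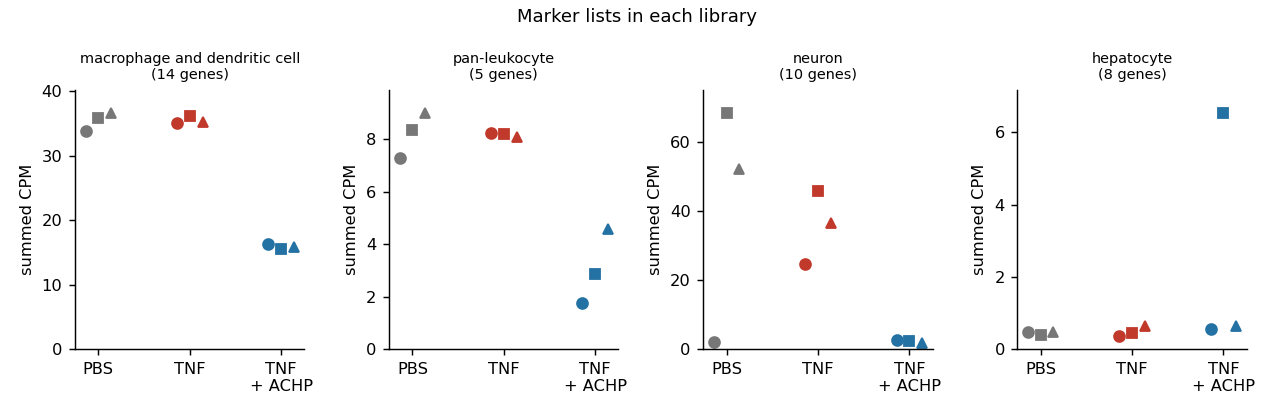
Summed CPM (linear axes from 0, each with its own range) of the markers of macrophages and dendritic cells, of all leukocytes, of neurons and of hepatocytes in each library, with shapes for replicate numbers. The first list lies at 33.8 to 36.6 CPM in PBS and 35.1 to 36.2 with TNF and at 15.6 to 16.4 with ACHP, and the hepatocyte list is high in 1 library at 6.53 CPM.

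Genes beside the members on the chromosome showed small differences with TNF. Within 200 kb of Pglyrp2 7 of 16 genes were tested, and their TNF log2 fold changes ran from −0.07 to 0.14. The nearest were Wiz, at 23.0 kb (0.10, edgeR adjusted p = 0.44), and Cyp4f17, at 81.9 kb on the other side (0.01, edgeR adjusted p = 0.97). Only Akap8 was called higher, 1 of 7 against 3.31% of all genes, by 0.14 (edgeR adjusted p = 0.040), and not without any 1 PBS or TNF library (edgeR adjusted p from 0.069 to 0.20). Around Il2rg 6 of 15 genes were tested and none was called by edgeR or DESeq2 (0 at an unadjusted p under 0.05), with values from −0.07 to 0.29. Foxo4, only 3.50 kb away, stood at −0.07 (edgeR adjusted p = 0.69) and Med12, at 5.78 kb, at −0.02 (edgeR adjusted p = 0.93). Around Zbtb7c 2 of 10 were tested and called by neither tool (1 at an unadjusted p under 0.05): Ctif, at 123 kb (0.16, edgeR adjusted p = 0.14), and Smad2, at 93.0 kb (−0.02, edgeR adjusted p = 0.84). None of these 15 neighbours was called for ACHP against TNF or against PBS by edgeR or DESeq2, and 3 and 1 had an unadjusted p under 0.05. Of all genes 7.17% and 6.04% were called by edgeR, so with 15 genes nothing is read from a count of 0.

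**Figure D5:**
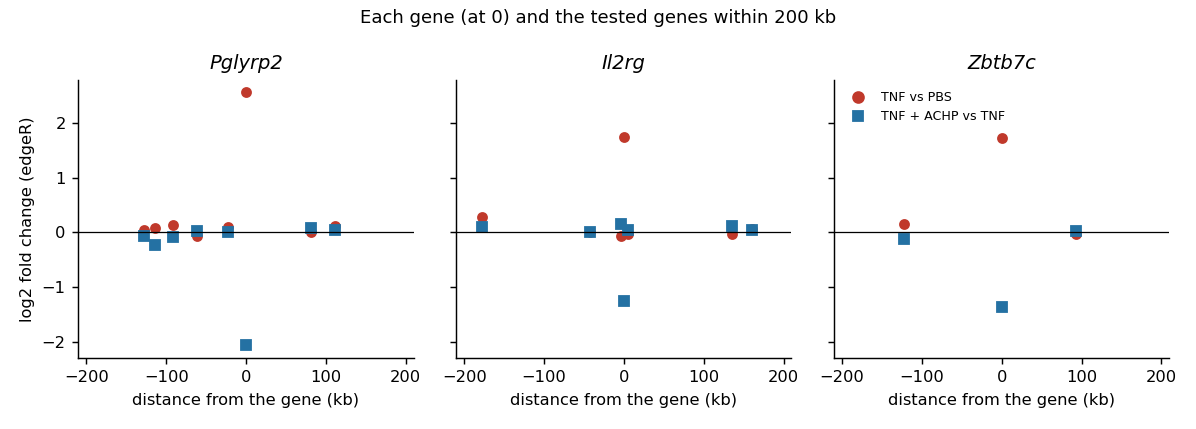
Fitted log2 fold change of each member (at 0 on the horizontal axis) and of the tested genes within 200 kb, by distance in kb, for TNF against PBS (red circles) and TNF with ACHP against TNF (blue squares). The members stand at 1.72 to 2.55 and −2.05 to −1.24, while the neighbours lie between −0.22 and 0.29.

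Genes most like each member over the 9 libraries were found by the Pearson correlation of log2 CPM among 10323 genes reaching 5 CPM in a group. All libraries and their 3 groups are shared, so the values describe likeness of shape only. Nearest to Pglyrp2 were Ppp1r12b (r = 0.986, n = 9), a myosin phosphatase subunit, the chemokine Ccl20 (0.985), the kinase Stk17b (0.980), the NF-kB inhibitor Tnfaip3 (0.979) and the hyaluronan receptor Cd44 (0.977). For Il2rg they were Ctps (0.979), which makes CTP, the chloride channel protein Clic4 (0.974), the splicing factor Srsf3 (0.970), Arap3 (0.968) and the chemokine Cxcl16 (0.968). For Zbtb7c they were Dock10 (0.987), Sema4d (0.981), the collagen gene Col5a3 (0.969), and again Ppp1r12b (0.968) and Cd44 (0.968).

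Likeness of shape did not mean likeness of size. The log2 fold change with TNF was 1.71 for Ccl20, 1.23 for Arap3 and 1.08 for Dock10, but 0.16 for Ctps and 0.09 for Sema4d. The members themselves correlated at 0.986 for Pglyrp2 with Zbtb7c, 0.934 for Pglyrp2 with Il2rg and 0.932 for Il2rg with Zbtb7c (n = 9 libraries each), which the choice of genes with 1 pattern largely sets.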

How the data were processed

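Total RNA of 9 cultures was sequenced. Per the file headers, the authors counted reads per gene with featureCounts 2.0.1 at default settings on the Ensembl 109 annotation of GRCm39; the deposited values are raw counts. The submitters' processing notes also name STAR, DESeq2 and mm10, with no role given. Symbols were matched for 52029 of 57010 identifiers, holding 99.6% of counts. No other column of sample values was present.

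The table was filtered with filterByExpr, scaled with TMM (factors 0.993 to 1.01) and fitted in edgeR 4.0.16 (quasi-likelihood, R 4.3.3) with 1 mean per group over all 9 libraries, leaving 6 residual degrees of freedom. P-values were adjusted by Benjamini-Hochberg over 14747 genes, and genes were called at an adjusted p under 0.05. CPM and RPKM were computed from the counts. On simulated counts, the TNF comparison called 39 of 50 genes changed 1.5-fold and 50 of 50 changed 4-fold. Smaller changes were not simulated, nor were the differences in cell make-up between the real libraries. DESeq2 1.42.0, other scalings and filters, a replicate block, a neuronal marker covariate and leaving out each library were alternatives.

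The members and lists were chosen with earlier results of these data known. Named genes were the members, fixed relatives, up to 4 called genes of each list with the largest changes, the nearest tested neighbours, the 5 genes most like each member, and the 2 genes on each side of the 3-fold limit. Ripk2, Il7, Tslp, Crlf2, Cdkn1a, Akap8, the marker genes and the untested list genes were named outside this rule, after their values were seen. Promoters came from RefSeq (GRCm38.p6).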

Additional observations from a re-analysis of the deposited data

How the results depend on the processing

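Every alternative kept the direction of all 3 members in all 3 comparisons, and no called list gene or neighbour changed sign; uncalled ones did, such as Il15ra with TNF (0.45 to −0.07 with the lone PBS library) and Zbtb7a (0.01 to −0.08). Leaving out each library in turn gave TNF log2 fold changes of 2.46 to 2.74 for Pglyrp2, 1.53 to 1.89 for Il2rg and 1.58 to 1.85 for Zbtb7c. For ACHP against TNF these were −2.13 to −1.93, −1.39 to −1.03 and −1.43 to −1.29, and against PBS 0.41 to 0.69, 0.40 to 0.65 and 0.22 to 0.50. With the neuronal marker covariate, ACHP against TNF gave −1.78 (SE 0.48) for Pglyrp2, −1.29 (SE 0.41) for Il2rg and −0.95 (SE 0.32) for Zbtb7c. Against PBS the values were 0.73 (SE 0.43), 0.46 (SE 0.38) and 0.72 (SE 0.3). With PBS replicate 1 as the only (lone) PBS library, chosen after seeing the data, Zbtb7c gave 2.12 for TNF and 0.77 for ACHP against PBS. The cause of these moves was not tested.

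Over all 79 tested list genes, 7 were called higher and 1 lower with TNF, 1 and 5 with ACHP against TNF, and 2 and 3 against PBS. In the same order, the shares of all genes called were 3.31% and 2.91%, 2.71% and 4.46%, and 2.18% and 3.87%. For TNF, DESeq2 called 3 and 0, the lone PBS library 3 and 0, and no filter, the replicate block and the neuronal covariate each 2 lower. For ACHP against TNF, 2 were higher with no filter, with only the 6 libraries compared, with the replicate block and with the lone PBS library; the covariate gave 0 higher and 3 lower, and DESeq2 3 lower. Against PBS, the covariate gave 0 and 1, the lone PBS library 1 and 1, and no filter 6 lower. For single genes, DESeq2 did not call Il4ra, Cish, Zbtb37 or Akap8 with TNF (adjusted p 0.052 to 0.097), nor Slc15a3 for ACHP against TNF (0.12), and Nod2 was not called with only the 6 libraries (0.052). With the covariate, edgeR did not call Slc15a3 (0.24) or Fasn (0.34) for ACHP against TNF, nor Slc15a3 (0.14), Socs2 (0.08), Zbtb18 (0.59) or Fasn (0.47) against PBS. Zbtb18 was called with TNF under the replicate block (−0.16, adjusted p 0.044), no filter (0.024), the covariate (0.023) and without PBS replicate 1 (0.02), and Akap8 was not under total counts alone (0.058), no filter (0.054) or the covariate (0.054). Trp53 was called against PBS with no filter (0.017) and without PBS replicate 1 (0.029). The lone PBS library ended the TNF calls of Nod2, Il4ra, Zbtb37, Trp53 and Akap8 (0.16 to 0.40) and the calls of Slc15a3, Socs2, Zbtb18 and Fasn against PBS (0.07 to 0.56). Leaving out 1 library gave 3 to 7, 0 to 2, 1 to 2, 2 to 5, 1 to 3 and 2 to 4.

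Over all genes, ACHP against TNF called 400 higher and 658 lower, but 67 and 142 with the covariate and 247 higher by DESeq2. Against PBS it called 321 and 570, but 54 and 113 with the covariate, 148 and 345 with only the 6 libraries, 209 higher by DESeq2 and 862 lower with no filter. The neuronal covariate was low in every library with ACHP and higher in every TNF library, which by itself lowers precision. With PBS replicate 1 alone, TNF called 277 and 141 in place of 488 and 429, ACHP against TNF 610 higher and ACHP against PBS 89 and 148. Leaving out TNF replicate 1, 2 or 3 gave 252, 275 and 318 higher and 216, 224 and 279 lower with TNF, and 181, 157 and 258 higher for ACHP against TNF (422 and 384 lower without the first or second). Without TNF with ACHP replicate 2 or 3 that comparison gave 188 and 212 higher and 402 and 431 lower. Against PBS, 154 and 357 were called without PBS replicate 2, and 134 and 360 without TNF with ACHP replicate 3. The labels do not say whether equal replicate numbers mark paired cultures, and 3 libraries per group cannot settle it. Deviations from the group means correlated at −0.10 to 0.174 for same-numbered libraries and at −0.211 to 0.173 for others. Of the 9 libraries, 4 correlated best with their own number. At 11 to 125 reads per library, counting error alone gives the members a coefficient of variation of 9.33% to 25.8% for a group.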
